A study of Mus musculus with 5 samples.

Results

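Lipid uptake and storage genes were followed in granulosa cells, the hormone-producing cells that line the ovarian follicle, after an ovulatory stimulus. The mice were wild type or had the genes of 2 C/EBP transcription factors deleted in these cells. The set holds 10 named genes, chosen by name, with every probe set whose platform annotation gives one of those symbols alone. This gave 19 probe sets for 9 genes, of 45101 probe sets on the array. No such probe set was listed for Soat1, the enzyme that esterifies cholesterol for storage, and it was not analysed here.

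Each array measured 1 sample. Per the labels, all mice were primed for 48 h with eCG, a gonadotropin that makes follicles grow, and then given hCG, which acts on the luteinizing hormone receptor and sets off ovulation. There were 2 wild-type arrays, at 8 and 24 h of hCG. The other 3, at 4, 8 and 24 h, came from mice with fl/fl alleles of both CEBPα and CEBPβ and the Cyp19-cre transgene, called the knockout here. Age was 23 days for the early times (4 and 8 h) and 24 days for the last. In the knockout the floxed genes of C/EBPα and C/EBPβ are cut by a recombinase under a Cyp19 promoter, which is active in granulosa cells, so other cells in the preparation would keep both genes. Whether a sample pooled several animals, and whether wild type carried floxed alleles without the recombinase, the sources used here do not say.

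Luteinizing granulosa cells take up fatty acids and cholesterol from lipoproteins and keep the surplus as esters in lipid droplets, from which cholesterol is drawn for progesterone synthesis. Lipoprotein lipase (Lpl) frees fatty acids from circulating triglyceride, the scavenger receptor CD36 carries them across the membrane, and the binding proteins of Fabp4 and Fabp5 hold them in the cytosol. Agpat2 acylates lysophosphatidic acid to phosphatidic acid on the way to triglyceride, Dgat1 and Dgat2 add the last acyl chain, Plin2 coats the droplet, and hormone-sensitive lipase (Lipe) breaks its lipids down. C/EBPα and C/EBPβ are best known as activators of the fat cell program, in which Fabp4, Cd36, Lpl and Agpat2 are strongly expressed.

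The deleted genes gave lower signal in the knockout than in wild type. Cebpa read 19 against 685 at 8 h and 38 against 352 at 24 h, and Cebpb 1127 against 7436 and 85 against 3976. Cebpb was thus still well detected in the knockout at 8 h, where the 75th percentile of the array was 177. Of 9 granulosa markers 7 had a probe set of their own, and all 7 lay above the floor on every array, among them Inha, an inhibin subunit, at 15340 to 20053 on the 4 arrays at 8 and 24 h. The floor, an intensity of 22, is the 40th percentile of all values. The knockout array at 4 h stood apart, with a median intensity of 54 against 31 or 32 on the others and a correlation with them of 0.86 to 0.91 across 15327 genes, against 0.94 to 0.98 among the other 4. Beside the floor and the choice of probe set, which use all 5 arrays, it therefore enters only a comparison of its own. Markers of other cells moved with genotype at 8 h. Of the stroma, smooth muscle and pericyte markers, 13 of 13 were lower in the knockout by the rule given next. Of 15 endothelial markers above the floor 14 were lower, against 4.05% of all genes. The median log2 differences of these lists were -2.33 and -1.72. At 24 h, 3 of 13 and 3 of 15 were lower, against 3.92% of all genes. Below 0 at 24 h lay 12 of the 13 and all 15, with medians of -0.44 and -0.76, against 0.05 over all genes. Of 4 theca markers Cyp17a1 was lower at 8 h (939 in wild type and 339 in the knockout, 2.77-fold), and none passed the rule at 24 h.

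With 1 array per group a single comparison has no test. A gene passed the size rule when the arrays differed by 1 or more on the log2 scale, which is 2-fold, and the higher value reached the floor. A gene was counted by its probe set of highest mean. The measure of error at hand is technical, the spread between probe sets of one gene, with an SD on the log2 scale of 0.28 between genotypes at 8 h and 0.40 at 24 h. It leaves out the spread between animals.

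**Figure D1:**
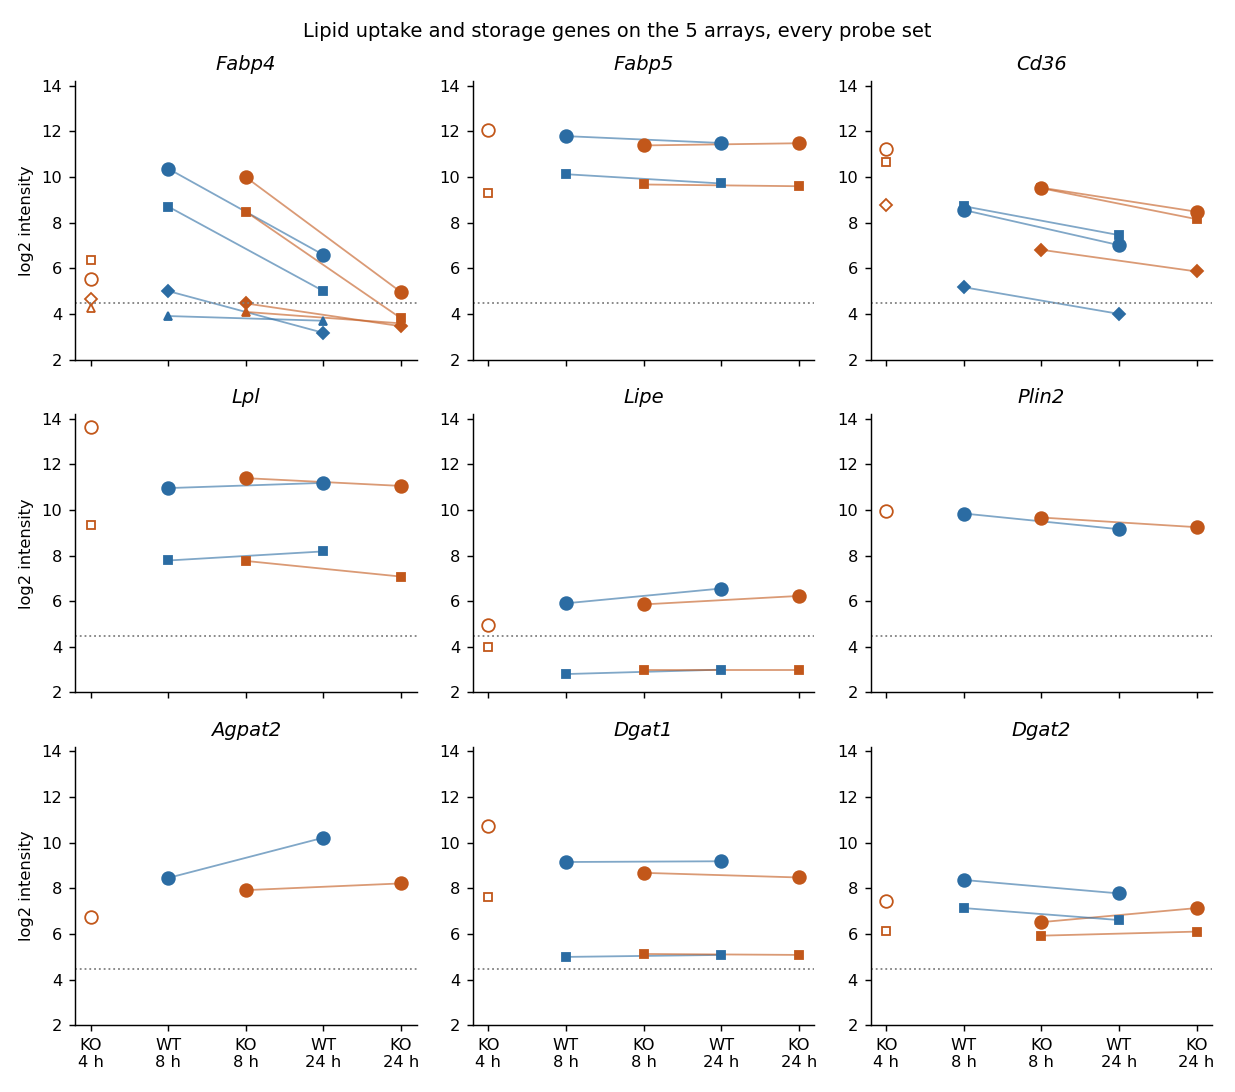
Log2 intensity of every probe set of the 9 genes on the 5 arrays, knockout (KO, orange) and wild type (WT, blue), 1 array per point. The large circle is the probe set of highest mean, lines join 8 h to 24 h within a genotype, open symbols are the 4 h array on its own scale, and the dotted line is the floor. Fabp4 fell from 1316 to 96 in wild type and from 1016 to 31 in the knockout, while Agpat2 rose to 1195 in wild type and stood at 298 in the knockout.

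At 8 h after hCG, about the time follicles prepare to rupture, Dgat2 was the one member past the size rule between genotypes. Wild type read 331 and the knockout 92 on probe set 1422678_at, 3.60-fold lower. The second probe set, 1422677_at, gave 141 and 61, 2.31-fold lower. Both Dgat2 probe sets were thus low in the knockout, and 139 of 12924 genes were lower there by as much or more. The comparison asks what deletion of the Cebpa and Cebpb genes changes before ovulation. In all, 1 of 9 members passed, against 5.63% of all genes above the floor. The median log2 difference over the 9 members was -0.37, against -0.01 over all genes. Below 0 lay 7 of the 9 members and 6554 of the 12924 genes. In bulk samples fewer cells of a type and less RNA per cell cannot be told apart, and the part of the lower stroma and endothelial signal in the value for Dgat2 was not tested.

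Cd36 lay on the other side. Its probe set 1423166_at at 8 h read 375 in wild type against 738 in the knockout, 1.97-fold higher and just short of the rule. Probe set 1450884_at gave 36 and 112, 3.11-fold higher, and 1450883_a_at gave 421 and 727, 1.73-fold higher. All 3 probe sets were higher in the knockout, and Cd36 passed the rule after median centring (1.02), after quantile normalization (1.02) and with the mean of its probe sets (1.13). It stayed short of the rule without a floor (0.98). It was also short with the probe set chosen without the 4 h array (0.79), an alternative added after the data had been examined. Endothelium and macrophages also express Cd36. On the same arrays 14 of 15 endothelial markers were lower in the knockout by the rule, and of 15 macrophage and leukocyte markers 5 were lower and 1, Cd52, higher. Of all genes 4.05% were lower and 1.58% higher. The part of endothelium and macrophages in the Cd36 value was not tested.

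The remaining members differed by less than 2-fold at 8 h. Fabp4 read 1316 in wild type and 1016 in the knockout, a log2 difference of -0.37. Its probe sets 1451263_a_at (416 and 357) and 1424155_at (32 and 22) were at -0.22 and -0.54. The last Fabp4 probe set, 1425809_at, lay below the floor on these arrays. Fabp5 was 3533 and 2663, a difference of -0.41, and 1112 and 814 on its second probe set, 1416022_at, at -0.45. Agpat2 was 352 and 243, at -0.53, and Dgat1 571 and 411, at -0.47, with 32 and 35 on its second probe set, 1445229_at. Lpl was 1982 and 2680, at 0.44, and its second probe set gave 220 and 217, so the pair did not show one direction. Lipe, at 60 and 58, and Plin2, at 916 and 811, differed by -0.05 and -0.18. These last differences lay within the SD between probe sets. The second Lipe probe set, 1432180_at, read 7 to 16 on the 5 arrays, below the floor, and gives no comparison.

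At 24 h, when the cells that remain in the follicle have begun to luteinize, Agpat2 and Fabp4 were lower in the knockout and Cd36 was higher. Agpat2 stood at 1195 in wild type against 298 in the knockout, 4.01-fold lower on its single probe set. Of 13052 genes, 103 were lower in the knockout by as much or more, 0.789% of them. The part of other cell types in the Agpat2 value was not tested. In all, 3 of 9 members passed the size rule, against 7.04% of all genes, and the median over the members was -0.33 against 0.05 over all genes.

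At 24 h Fabp4 stood at 96 in wild type against 31 in the knockout on probe set 1417023_a_at, 3.10-fold lower. On 1451263_a_at it was 32 and 14, at least 1.45-fold lower. The other 2 Fabp4 probe sets were below the floor in both genotypes and give no fold. On the brighter probe set the value lay at the 66.9th percentile of the array in wild type. In the knockout it lay at the 49.5th, close to the floor. The call was lost with the mean of the 4 probe sets (-0.66). Fabp4 is also a marker of capillary endothelium. The summed intensity of the 17 endothelial markers at 24 h was 1800 in wild type against 1013 in the knockout, and at 8 h 4611 against 4407, and their part in the Fabp4 value was not tested. Cd34 alone gave 2056 and 3637 of the sums at 8 h. Of the adipocyte markers, Adipoq, Cidec, Lep and Aqp7 were below the floor on all 4 arrays, and Retn, at 44 to 99 on these arrays, was the only one of 5 above it.

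At 24 h Cd36 stood at 129 in wild type against 356 in the knockout, 2.76-fold higher. The second probe set gave 175 and 284, 1.62-fold higher, and the third 16 and 58, at least 2.64-fold higher. The direction was shared by all 3 probe sets and by both times. Choosing the probe set of highest mean without the 4 h array, an alternative added after the data had been examined, took the second probe set and lost the call at 24 h (0.70).

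At 24 h Dgat2 stood at 220 in wild type against 141 in the knockout, and 98 and 69 on its second probe set, with log2 differences of -0.64 and -0.51. It was lower in the knockout at both times, but short of the rule at 24 h. Dgat1 was 584 and 357, at -0.71, and its other probe set read 34 in both. Lpl gave different answers by probe set, with 2322 and 2117 on 1415904_at and 290 and 135 on 1431056_a_at, 2.15-fold lower on the dimmer one. Fabp5 at 2868 and 2847, Plin2 at 569 and 605, and Lipe at 94 and 75 differed by -0.01, 0.09 and -0.33, each within the SD between probe sets. The second Fabp5 probe set read 839 and 772, at -0.12.

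**Figure D2:**
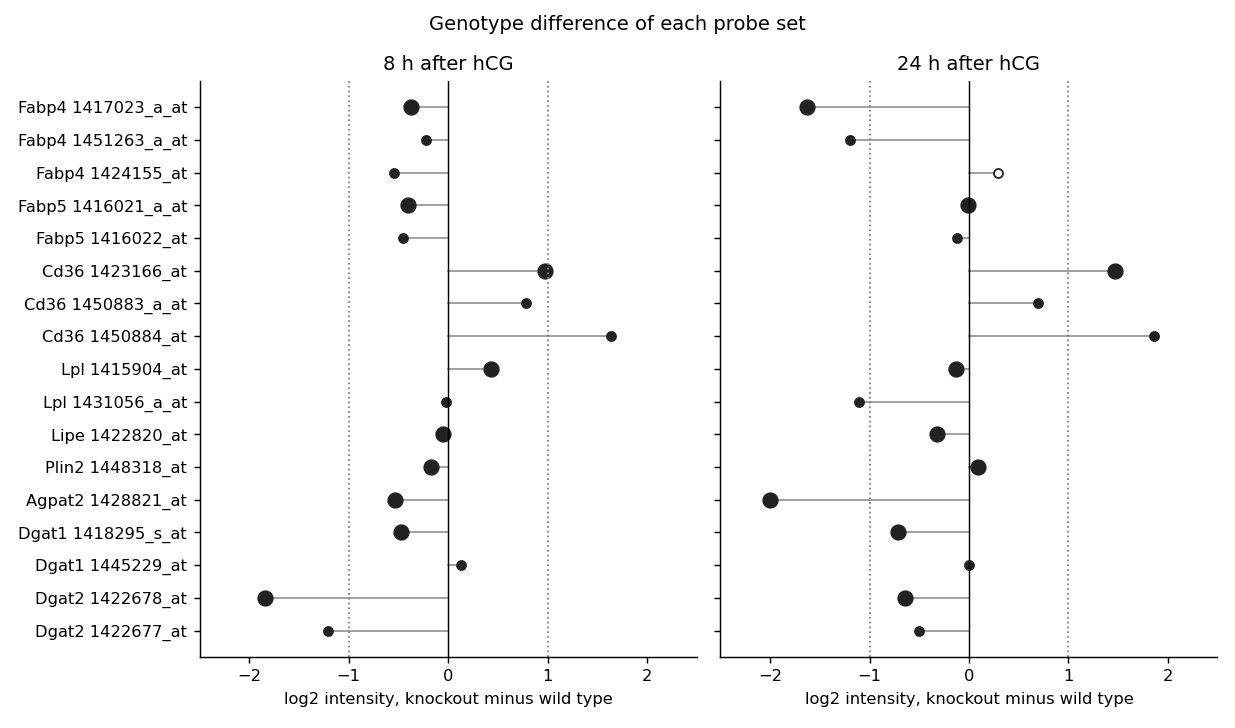
Log2 intensity in the knockout minus wild type at 8 h and 24 h for the 17 probe sets that reach the floor, 1 array against 1 array, with the probe set of highest mean as a large point, an open point where both values lie below the floor, and dotted lines at 2-fold. The 3 Cd36 points lie above 0 and both Dgat2 points below 0 at both times, and Agpat2 moves from -0.53 to -2.00.

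Promoters from the RefSeq table, build GRCm38.p6, are shown for Agpat2 and Cd36, the listed members with the largest genotype differences in each direction. The table held 5 of the 10 genes, and the windows are the 250 bases before the start site, on the minus strand, at chr2:26604418-26604667 for Agpat2 and chr5:17835897-17836146 for Cd36. Capitals mark a match to a C/EBP core (TTGCNNAA) or to the CCAAT box from which the factors have their name, on either strand.
Agpat2: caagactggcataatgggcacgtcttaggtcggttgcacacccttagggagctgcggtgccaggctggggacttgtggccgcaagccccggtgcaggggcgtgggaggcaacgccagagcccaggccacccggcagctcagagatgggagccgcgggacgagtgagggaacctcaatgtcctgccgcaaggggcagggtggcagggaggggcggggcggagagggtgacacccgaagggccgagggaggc
Cd36: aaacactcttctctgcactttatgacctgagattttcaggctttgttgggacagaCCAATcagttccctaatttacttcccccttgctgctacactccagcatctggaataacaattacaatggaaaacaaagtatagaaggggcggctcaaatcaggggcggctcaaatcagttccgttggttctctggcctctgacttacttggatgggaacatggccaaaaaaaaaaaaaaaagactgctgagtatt
Neither window held TTGCNNAA, which was present in 9.56% of the 32851 promoter windows of this length. Cd36 held 1 CCAAT, at positions -195 to -191 counted from the start site, a match found in 33.8% of windows. Cd36 also held 1 nuclear receptor half-site, AGGTCA, on the opposite strand at -228 to -223, found in 14.0% of windows. A match describes the letters of the window and is not a shown binding site.

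From 8 h to 24 h, Fabp4 fell in both genotypes. It went from 1316 to 96 in wild type, 13.7-fold, and from 1016 to 31 in the knockout, 32.8-fold. The probe set 1451263_a_at gave 416 to 32, 13.0-fold, and 357 to 14, at least 16.2-fold. A fall as large was seen in 22 of 13054 wild-type genes and 14 of 12999 knockout genes. Probe set 1424155_at went from 32 to 9 in wild type and from 22 to 11 in the knockout, under the floor at 24 h. In wild type 6 of 16 endothelial markers above the floor were lower at 24 h by the rule and none higher, with a median log2 change of -0.89. In the knockout 2 of 12 were lower and none higher, with a median of 0.00 and 6 on either side of 0. Of the 13 stroma, smooth muscle and pericyte markers, 7 were lower in wild type and none higher, while in the knockout none was lower and 4 were higher. Of all genes, 842 of 13054 were lower and 724 higher in wild type. In the knockout 684 of 12999 were lower and 890 higher. The part of endothelial and stroma cells in the change of Fabp4 was not tested.

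Cd36 fell as well, from 375 to 129 in wild type, 2.91-fold, and from 738 to 356 in the knockout, 2.07-fold. The second probe set fell 2.41-fold and 2.56-fold. The third went from 36 to 16, at least 1.64-fold lower, and from 112 to 58, 1.93-fold lower. Thus Cd36 was lower at 24 h on each of its probe sets in both genotypes.

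Agpat2 rose from 352 to 1195 in wild type, 3.39-fold, while in the knockout it went from 243 to 298, a log2 change of 0.29. A rise as large as that in wild type was seen in 188 of 13054 genes, and one as large as that in the knockout in 4069 of 12999. The difference of the changes was -1.47. Differences of the changes of at least 1 on the log2 scale were found in 8.13% of all genes, and 3 of 9 members had one, namely Agpat2, Fabp4 (-1.26) and Dgat2 (1.21). Dgat2 went from 331 to 220 in wild type and from 92 to 141 in the knockout, log2 changes of -0.59 and 0.62 that were each short of the rule. With 1 array per group these differences have no test, and those of Fabp4 and Dgat2 were under 1 with the mean of their probe sets (-0.42 and 0.95). For Lpl the answer depended on the probe set, at -0.57 on 1415904_at and -1.08, past 1 in size, on 1431056_a_at. Over the same hours the stroma, smooth muscle and pericyte markers had a median log2 change of -1.21 in wild type and 0.66 in the knockout. What part these cells had in the Dgat2 difference was not tested.

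In wild type 3 of 9 members passed the rule between 8 h and 24 h, against 12% of all genes, and in the knockout 2 of 9, against 12.1%. The medians over the members were -0.30 for wild type and -0.20 for the knockout, against 0.00 and 0.07 over all genes. Plin2 went from 916 to 569 and from 811 to 605, with log2 changes of -0.69 and -0.42. Lipe went from 60 to 94 and from 58 to 75, with changes of 0.65 and 0.37. Fabp5 stayed between 2663 and 3533, Lpl between 1982 and 2680, and Dgat1 between 357 and 584 on their brighter probe sets over these 4 arrays. The second Fabp5 probe set went from 1112 to 839 and from 814 to 772, with changes of -0.41 and -0.08, and the second Lpl probe set from 220 to 290 and from 217 to 135, with 0.40 and -0.68. The time changes share arrays with the genotype differences and are no separate evidence of them.

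**Figure D3:**
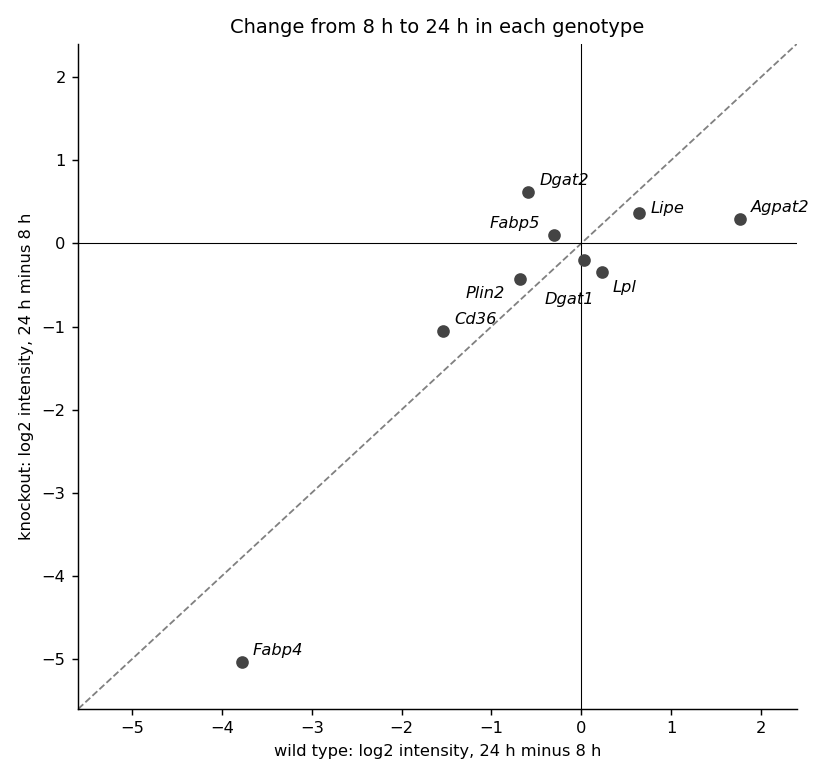
Log2 change in intensity from 8 h to 24 h in wild type (horizontal) and in the knockout (vertical) for the probe set of highest mean of each of the 9 genes, with equal change on the dashed line. Fabp4 and Cd36 fell in both genotypes, and Agpat2 lies at 1.76 in wild type and 0.29 in the knockout.

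The fit of genotype and time together, on the 4 arrays at 8 and 24 h, has 1 residual degree of freedom, which is the interaction of genotype and time and not replicate error. For genotype, limma with Benjamini-Hochberg adjustment called 0% of 27598 probe sets and none of the 17 member probe sets that reach the floor. In limma 3222 probe sets had an unadjusted p under 0.05, 7 of them probe sets of Cd36, Dgat2, Agpat2 or Dgat1. Probe sets of the same gene are not independent. The Cd36 probe set of highest mean differed by 1.22 ± 0.21 (SE), higher in the knockout at both times, with an adjusted p of 0.358 in limma. Agpat2 differed by -1.27 ± 0.41 and Dgat2 by -1.24 ± 0.35, both lower at both times, with limma's adjusted p at 0.42 and 0.415. For time, limma called 133 probe sets, 0.482%, among them 1 member probe set, 1451263_a_at of Fabp4 (-4.19 ± 0.30, adjusted p 0.0463), lower at 24 h in both genotypes. That call was lost without the variance trend and without the floor. The brighter Fabp4 probe set missed the threshold (-4.41 ± 0.36, limma's adjusted p 0.0559), as did the 3 Cd36 probe sets, at 0.073 to 0.0928.

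In the knockout at 4 h the members were set against 8 h after quantile normalization of the 5 arrays, since the 4 h array is on another scale, and 29.8% of all genes then passed the rule. On that scale the floor is an intensity of 21.1. Fabp4 was 30 at 4 h and 1136 at 8 h, 38.4-fold higher, and its second probe set went from 55 to 399, 7.30-fold higher. As deposited the brighter probe set read 46 at 4 h, at the 47.0th percentile of that array, and 1016 at 8 h, at the 93.7th. Fabp4 was thus near the middle of the array at 4 h, high at 8 h and near the middle again in the knockout at 24 h, at the 49.5th percentile.

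Lpl went the other way, from 8111 at 4 h to 3028 at 8 h, 2.68-fold lower, and it stood at the 99.4th percentile of the 4 h array. Its second probe set went from 418 to 241, short of the rule. Agpat2 was 75 and 270, 3.62-fold higher at 8 h, and Lipe 19 and 64, at least 3.04-fold higher. Dgat1 was 1051 and 457, 2.30-fold lower at 8 h, and its second probe set was 3.49-fold lower. In all, 5 of 9 members passed between 4 h and 8 h. Cd36 went from 1504 to 831, a log2 change of -0.86, and passed as deposited (-1.72), while Lipe was short of the rule as deposited (0.90). Of the other Cd36 probe sets, 1450884_at went from 288 to 124, 2.33-fold lower and past the rule, and 1450883_a_at from 1009 to 819, at -0.30. Fabp5 went from 2674 to 3007 and did not pass, but its second probe set went from 412 to 915, 2.22-fold higher and past the rule. Dgat2 did not pass either, and its probe sets lay on opposite sides of 0, with 121 and 101 (-0.25) on the brighter and 47 and 67 (0.52) on the other. Plin2 (624 and 911) was short of the rule too. Of the dim Fabp4 probe sets, 1424155_at went from 15 to 25, at least 1.17-fold higher, and 1425809_at was below the floor at both times. No wild-type array at 4 h was analysed here, so none of these changes can be compared between genotypes. Cell markers moved from 4 h to 8 h too. Of 11 endothelial markers 3 were higher and 2 lower at 8 h, and of 13 stroma, smooth muscle and pericyte markers 4 and 1. Of 7 granulosa markers 1 was higher and 2 lower, and of 7 oocyte markers 2 were lower. Retn changed by -2.26. Of all genes, 2461 of 13747 were higher and 1641 lower. The part of other cell types in the member values was not tested.

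The genes whose pattern over the 4 arrays at 8 and 24 h lay nearest to Fabp4, by distance between mean-centred log2 values among 13316 genes, were Ptgs2, at a distance of 0.67, Ereg (0.72) and Star (0.75). Ptgs2 read 865 and 409 in wild type and knockout at 8 h and 47 and 11 at 24 h. Nearest to Cd36 were Papss2 (0.21), Meg3 (0.27) and Rragd (0.27), and Papss2 read 2207 and 4992 at 8 h and 750 and 2408 at 24 h. All 6 were lower at 24 h than at 8 h in both genotypes. The knockout lay below wild type for the 3 nearest to Fabp4 and above it for the 3 nearest to Cd36. The 6 genes were picked for closeness on these same 4 arrays. The shared directions follow largely from that choice and are no separate evidence. The likeness rests on 4 values per gene.

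Other genes of lipid handling, in 8 lists with 91 genes, were read from the same arrays. At 8 h, of 67 above the floor, 7 were lower in the knockout and none higher, against 4.05% and 1.58% of all genes, with a median of -0.08. At 24 h 8 of 68 were lower and 2 higher, against 3.92% and 3.13%, with a median of -0.13. What part the lower stroma and endothelial marker signal had in the values of these lists was not tested.

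In glycerolipid synthesis, the pathway of Agpat2 and the Dgat genes, Gpam, which makes lysophosphatidic acid, at 8 h read 4962 in wild type against 1394 in the knockout, 3.56-fold lower. At 24 h it was 9760 and 3854, 2.53-fold lower. Agpat5, of the same family as Agpat2, was 694 and 248 at 24 h, 2.80-fold lower. Of the 10 genes of this list above the floor, 1 was lower at 8 h and 2 at 24 h, against 4.05% and 3.92% of all genes. None was higher at either time.

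Among lipid droplet genes, G0s2, an inhibitor of the triglyceride lipase ATGL, was 105 and 21 at 8 h, at least 4.77-fold lower in the knockout. The droplet coat genes Plin5 (109 and 43) and Plin4 (168 and 69) were 2.53-fold and 2.43-fold lower. At 24 h Plin5 was 1811 and 785, 2.31-fold lower, and Plin4 was 1025 and 1116. Of 8 genes, 3 were lower at 8 h and 1 at 24 h, against 4.05% and 3.92% of all genes. In the lipolysis list Mgll, which splits monoacylglycerol, was the 1 of 5 past the rule at each time, against 5.63% and 7.04% of all genes. Mgll was 2.85-fold lower at 8 h (114 and 40) and 4.74-fold lower at 24 h (128 and 27).

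Uptake genes went both ways at 24 h. Fabp3, a further binding protein of the Fabp family, read 329 in wild type against 1211 in the knockout, 3.68-fold higher, and Vldlr, a lipoprotein receptor, 653 and 1861, 2.85-fold higher. Slc27a4, a fatty acid transport protein, was 690 and 254, 2.72-fold lower, and Lmf1, which matures lipoprotein lipase, 268 and 133, 2.02-fold lower. At 8 h Cav1, the caveolin of lipid-rich membrane pits, was 1955 and 715, 2.73-fold lower. Gpihbp1, which holds lipoprotein lipase on capillary endothelium, was 51 and 18, at least 2.32-fold lower. Cav1 and Gpihbp1 are expressed by endothelium. On the same arrays 14 of 15 endothelial markers were lower by the rule, against 4.05% of all genes, with a median of -1.72. Emcn was the most so (400 and 39, 10.3-fold), and Cd34 was higher (2056 and 3637). At 24 h Cav1 was higher in the knockout (606 and 1081, 0.83) and Gpihbp1 lower (32 and 23), while all 15 endothelial markers above the floor lay below 0. The part of that cell type in these values was not tested.

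In the other lists, Nceh1, a cholesterol ester hydrolase, was 972 and 432 at 24 h, 2.25-fold lower, and Mlxipl, which encodes the sugar-responsive factor ChREBP, 471 and 142, 3.32-fold lower. No regulator passed the rule at 8 h, and Pparg, a main driver of fat storage genes, lay at 0.88, with wild type at 964 and the knockout at 1775. None of the 8 fatty acid oxidation genes passed at either time, against 5.63% and 7.04% of all genes, with medians of -0.01 and 0.15.

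**Figure D4:**
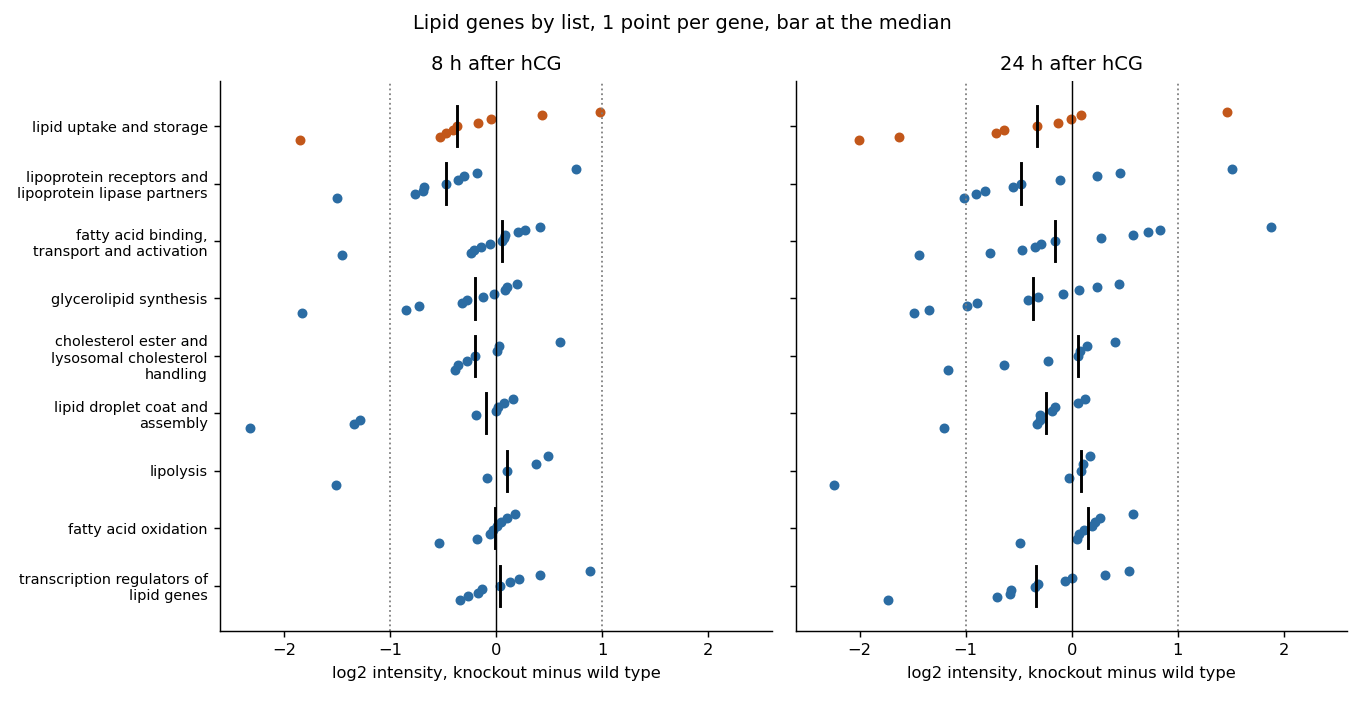
Log2 intensity in the knockout minus wild type at 8 h and 24 h for the 9 members (orange) and the 8 further lists of lipid genes (blue), 1 point per gene above the floor, with the list median as a bar and dotted lines at 2-fold. Fatty acid oxidation genes lie within 2-fold of wild type at both times, and Mgll in the lipolysis list stands at -1.51 and -2.25.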

How the data were processed

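RNA of ovarian granulosa cells was measured on 5 Affymetrix mouse arrays, 1 per group, and each array's group was taken from its title. The authors' deposited values are intensities, whole numbers on a linear scale. Per the submitters' processing notes, affy and RMA were used. Versions, the genome build and whether the arrays were normalized together are not given in the sources used here. RMA usually returns log2 values, so log2 was taken here, and rounding makes differences coarse at low intensity.

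Probe sets were named from the platform annotation, with symbols updated by Entrez identifier through a RefSeq table of GRCm38.p6 (34958 of 45101 probe sets with 1 symbol, 932 with several and 9211 with none listed, and 18194 genes). For a gene with several probe sets, the one of highest mean log2 value over the 5 arrays was taken. The size rule was at least 2-fold with the higher value at or above the 40th percentile of all values, and against a lower value under that floor a fold was computed from the floor and written "at least". The genotype and time effects were fitted with limma 3.58.1 in R 4.3.3, with a variance trend and Benjamini-Hochberg adjustment at 0.05 over 27598 probe sets. Tested on simulated data for genotype over 27598 probe sets, with noise even across probe sets (SD 0.21) and no interaction, that fit recovered 85% of changes of log2 size 1 and 100% of size 2, with 11 false calls among 196. The real residual is the interaction of genotype and time, so these rates cannot be applied to it.

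The 19 member probe sets are described, those below the floor by their level only. Of each further lipid list up to 3 genes, and of each marker list up to 2, were to be named by largest difference among those past the rule. Of the marker genes so picked only Emcn and Cyp17a1 are named, and the others enter the list counts alone. The nearest 3 genes were to be named for the 2 members of widest range. Inha, Retn, Cd34 and Pparg were singled out after their values were seen. The members and lists were chosen with earlier results of these data known. The number of arrays limits the precision, and single comparisons have no p-value. Alternatives covered the floor, the fold, the scaling, the probe set and the variance trend.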

Additional observations from a re-analysis of the deposited data

Results flagged for a closer look

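For 4 genes the change from 8 h to 24 h had opposite signs in the genotypes, and the difference was not tested. The share of all genes with such a change of sign was not computed, so this count has no background beside it. Dgat2 changed by -0.59 in wild type and 0.62 in the knockout on the log2 scale, a difference of 1.21. What part stroma cells had in this difference was not tested. For Lpl the changes were 0.23 and -0.34, a difference of -0.57, and its second probe set shared these signs, at 0.40 and -0.68. For Fabp5 they were -0.30 and 0.10, a difference of 0.40, but its second probe set had the same sign in both genotypes, at -0.41 and -0.08. For Dgat1 they were 0.03 and -0.20, a difference of -0.24. The SD between probe sets of a gene was 0.34 for the change in wild type and 0.39 in the knockout. On the brighter probe sets, the changes of Lpl, Fabp5 and Dgat1 lay within these SDs and those of Dgat2 beyond them.

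For 2 genes the genotype difference had opposite signs at the 2 times, which was not tested either, and the share of all genes was again not computed. For Lpl it was 0.44 at 8 h and -0.13 at 24 h, a difference of -0.57 as above. Its second probe set had the same sign at both times, -0.02 and -1.10, a difference of -1.08 that was past 1 in size. For Plin2 it was -0.18 and 0.09, a difference of 0.26, with both values within the SD between probe sets (0.28 at 8 h and 0.40 at 24 h).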

How the results depend on the processing

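Of 110 counts and medians under alternatives, 91 stayed within 1.5 times the main count or within the spread between probe sets. At 1.5-fold the members past the rule between genotypes were 2 at 8 h and 5 at 24 h, and 6 over time in wild type. At 3-fold they were 1 over time in the knockout, 3 from 4 h to 8 h and 0 for the difference of the changes. At 8 h, 2 members passed after median centring, after quantile normalization and with the mean of probe sets. With that mean 1 member passed for the difference of the changes, whose median turned from -0.24 to 0.26 with only probe sets that lack the suffixes _s_at, _x_at and _a_at. In that setting Fabp4 is read on a probe set below the floor at 24 h in both genotypes, and its values turned to 0.29 for genotype at 24 h and 0.83 for the difference of the changes.

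For the time effect, limma called 0 member probe sets without a trend and without a floor, 4 after median centring and 2 after quantile normalization. All calls for time were 56, 0, 1205 and 584 under these settings, against 133, so the count of calls depends on each of them. The genotype effect had no calls in any of these settings.

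Among 495 values of single members, 462 kept direction and side of the threshold, 15 lost a call, 16 gained one and 2 reversed. No paired analysis was possible because each group has 1 array, and leaving out an array would leave the fit without residual degrees of freedom. Values near the floor limit Fabp4 at 24 h and Lipe.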

Other observations

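Several lipid genes outside the members moved from 8 h to 24 h in both genotypes, and they were chosen after their values were seen. The droplet coat gene Plin5 went from 109 to 1811 in wild type and from 43 to 785 in the knockout, log2 changes of 4.05 and 4.19. Plin4 went from 168 to 1025 and from 69 to 1116, with changes of 2.61 and 4.02. Lipg, which encodes endothelial lipase, went from 407 to 1476 and from 358 to 1736, changes of 1.86 and 2.28.

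In the other direction, Pparg went from 964 to 296 and from 1775 to 368, with changes of -1.70 and -2.27. Cebpd, a further C/EBP factor, went from 295 to 66 and from 302 to 44, with changes of -2.16 and -2.78. Angptl4, an inhibitor of lipoprotein lipase, went from 3739 to 1738 and from 6276 to 1181, with changes of -1.11 and -2.41. Fabp7 went from 174 to 42 and from 201 to 51, with changes of -2.05 and -1.98. Vldlr went from 1966 to 653 in wild type and from 1155 to 1861 in the knockout, with changes of -1.59 and 0.69, a difference that was not tested.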
